A study of Mus musculus with 18 samples.

Results

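Genes for matricellular proteins and fibronectin were followed in the injured mouse carotid artery. They are Spp1, Tnc, Thbs1, Thbs2, Sparc, Sparcl1, Postn, Cthrc1, Fbln2 and Fn1. These were chosen by symbol, as 10 of the 35655 genes in the count table, and all 10 were among the 10312 genes with enough counts to be tested. The tissue was carotid artery of WT C57/BL6 mice, and per the methods of the study these were male mice operated on at 11 weeks. The left carotid was injured with a wire and the right served as control, and vessels with thrombosis were left out. The methods describe areas with the outer elastic lamina and the neointima, cut from frozen sections by laser. Their RNA was read by MACE-seq, a method that captures the 3′ ends of polyadenylated transcripts. The 18 libraries fell into 5 groups, with 4 libraries from day 0 (pre-injury) and 4, 3, 4 and 3 libraries from days 7, 14, 21 and 28 after wire injury. The study calls these samples pooled and does not give the number of mice behind a library. In 3 cases a day 0 and a day 21 library carry the same mouse number, and the sources used here do not state whether those day 0 vessels came from the control side of operated animals.

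Matricellular proteins are secreted into the extracellular matrix but add little to its mechanical strength. They bind collagens, growth factors, proteases and cell surface receptors, chiefly integrins, CD36, CD47 and CD44, and thereby alter how cells adhere, migrate and divide. Most are scarce in quiescent adult arteries and are known for their return in wounds and in the neointima, where fibronectin forms an early scaffold on which collagen fibrils are laid down.

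Library totals ran from 440675 to 878310 counts (median 659166), and levels are given as CPM, the counts of a gene per 1e+06 counts of its library over the genes tested, after TMM scaling of the library sizes. In the shallowest library 3 counts stood for 6.98 CPM, which limits the precision of scarce genes. The arterial origin of the day 0 tissue was clear in the smooth muscle genes, since the 11 contractile markers, Myh11, Acta2 and Cnn1 among them, summed to between 35160 and 40220 CPM there. A gene was called changed at an adjusted p under 0.05 in edgeR's quasi-likelihood test, with Benjamini-Hochberg adjustment over all 10312 genes. These p-values measure the spread between libraries, which may be partly technical, since the labels do not describe how the replicates were taken.

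Most of the 10 genes were higher in the injured wall from day 7 to day 21, and 8 of the 10 were not called on day 28. On day 7, 7 genes rose and 1, Sparcl1, fell. Of all genes tested 19.8% were called on that day, 11.3% higher and 8.53% lower. On day 14, 8 rose and Sparcl1 fell, where 6.22% of all genes were called, 4.8% higher and 1.42% lower. The same 9 genes were called on day 21, in the same directions, where 8.84% of all genes were called, 5.92% higher and 2.93% lower. On day 28 Spp1 and Tnc alone were called, both higher, where 1.34% of all genes were called, 0.97% higher and 0.369% lower. Taken in the order of the 4 days, the median log2 fold change of the 10 genes was 2.07, 2.28, 2.07 and 0.31. Over all genes tested these medians were 0.07, 0.05, 0.07 and -0.01. Postn was called on none of the 4 days. In bulk tissue of this kind, fewer cells of a type and less RNA per cell cannot be told apart.

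**Figure D1:**
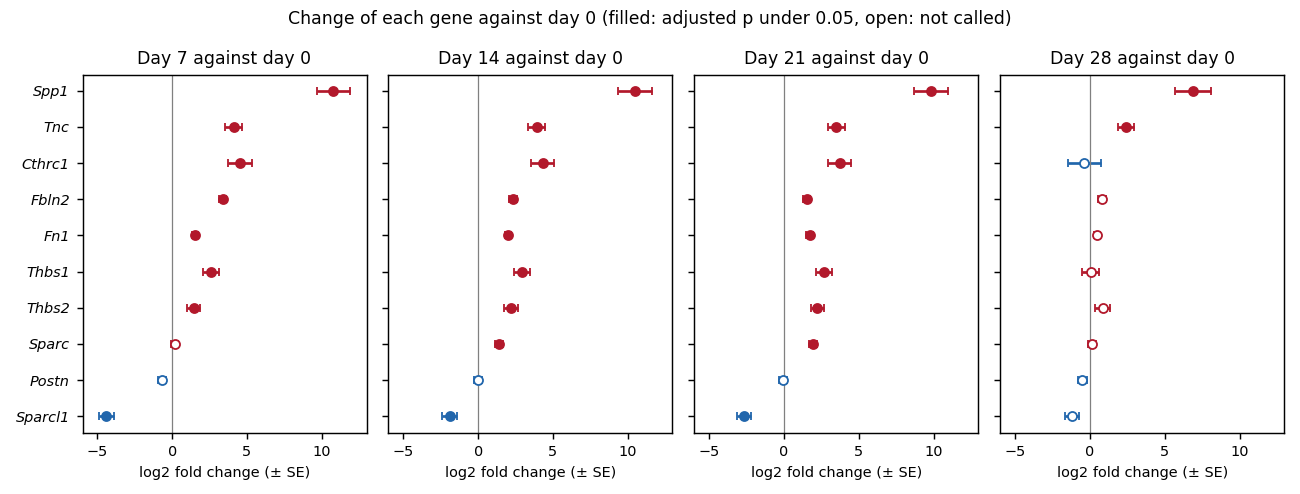
Log2 fold change of each of the 10 genes against day 0, 1 panel per day after wire injury, with bars of 1 standard error on each side and filled points where the adjusted p was under 0.05. Points to the right of 0 are higher than on day 0. Filled points number 8, 9, 9 and 2 on days 7, 14, 21 and 28, and the points of Spp1 are fitted values that depend on how a count of 0 is treated.

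Spp1 encodes osteopontin, a phosphorylated ligand of integrins and CD44 made by macrophages, bone cells and modulated smooth muscle cells. The gene lies at chr5:104582165-104589235 on the plus strand (GRCm39) with 7 exons in its canonical transcript. On day 0, 2 libraries held no Spp1 count and the other 2 held 1 count each, or 1.20 and 1.31 CPM. On day 7 the libraries held 2806, 2031, 387 and 932 CPM in replicate order. Every injured library lay above every day 0 library, and the values within day 7 differed widely. On day 14 they held 397, 3125 and 232 CPM, on day 21 918, 664, 1196 and 414 CPM, and on day 28 168, 119 and 19.2 CPM. Spp1 thus stayed above day 0 in each library of the last day, and each of these lay under every library of days 7, 14 and 21. Among the day 14 libraries, 1 stood far above the other 2.

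Since day 0 was at or near 0, the fold change is a lower bound against 3 counts in the day 0 library where these weigh most, or 4.47 CPM, and covers counting error only. The mean was at least 344-, 280-, 178- and 22.8-fold higher on days 7, 14, 21 and 28 (adjusted p = 2.9e-07, 2.1e-06, 3.6e-06 and 0.0047). Without replicate 2 of day 14, whose 3125 CPM was the highest level of all 18 libraries, the bound for that day was 70.3-fold, and without replicate 1 of day 7 that of day 7 was 249.6-fold. The day 28 call was lost in 1 of 27 alternatives, which blocked on mouse number (adjusted p = 0.243, within a range of 1.5e-41 to 0.243 over all alternatives). That alternative also used limma in place of edgeR. Mouse numbers are shared only between days 0 and 21. For each call lost with this alternative, the block and the change of test cannot be told apart. The gene shares exon sequence on its own strand with Gm42793 in the annotation (GENCODE vM39), which has no row under that name in the count table.

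Tnc encodes tenascin-C, a large multi-armed glycoprotein of wound edges and developing tissue that counters adhesion to fibronectin. It lies at chr4:63878014-63965443 on the minus strand with 26 exons. Day 0 libraries held 44.7, 29.9, 1.49 and 36.7 CPM, and day 7 libraries 199, 347, 1170 and 260 CPM. Day 14 libraries held 278, 692 and 326 CPM, day 21 libraries 306, 412, 332 and 242 CPM, and day 28 libraries 171, 152 and 131 CPM. No injured library of any day overlapped day 0, and the spread within a day narrowed from a standard deviation of 455 CPM on day 7 to 20.0 on day 28. Tnc was higher by 4.11 on the log2 scale (SE 0.56, adjusted p = 7.9e-06) on day 7, 3.92 (SE 0.57, adjusted p = 9.5e-05) on day 14 and 3.50 (SE 0.55, adjusted p = 0.00020) on day 21. Without replicate 3 of day 7, the library with 1170 CPM, the day 7 change was 3.24 and remained called.

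On day 28 Tnc was still higher by 2.41 (SE 0.56, adjusted p = 0.034), but the margin was narrow. The call was lost without replicate 2, 3 or 4 of day 0 (adjusted p = 0.0737, 0.0674 and 0.0664), without replicate 2 or 3 of day 28 (adjusted p = 0.0826 and 0.0549) and with the replicate number or the mouse number as a block (adjusted p = 0.0861 and 0.0784). The adjusted p ranged from 1.6e-10 to 0.0861 over the 27 alternatives, and the change itself from 2.03 to 2.94.

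The 250 bases before an annotated start of Spp1, Tnc, Fbln2 and Postn are shown because the first 3 genes had among the largest rises on day 7 while Postn was not called at any time. They are RefSeq sequences of GRCm38.p6, 5′ to 3′ on the strand of the gene, from chr5:104434861-104435110 (plus strand), chr4:64047016-64047265 (minus strand), chr6:91212514-91212763 (plus strand) and chr3:54360857-54361106 (plus strand), and 6 of the 10 genes had such an entry. Spp1, Tnc and Postn had 2 entries each, and the one whose start lay nearest to the first base of the canonical GENCODE transcript, as found by sequence, is shown. Capitals mark every match, on either strand, to the TATA box letters TATAAA, the AP-1 letters TGANTCA, the TEAD letters GGAATG or the SMAD letters CAGAC.
Spp1: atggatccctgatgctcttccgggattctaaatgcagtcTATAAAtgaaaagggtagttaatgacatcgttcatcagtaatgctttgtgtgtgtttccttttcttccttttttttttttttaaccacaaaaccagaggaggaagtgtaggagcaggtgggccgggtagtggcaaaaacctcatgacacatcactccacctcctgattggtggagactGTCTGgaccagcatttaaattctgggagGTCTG
Tnc: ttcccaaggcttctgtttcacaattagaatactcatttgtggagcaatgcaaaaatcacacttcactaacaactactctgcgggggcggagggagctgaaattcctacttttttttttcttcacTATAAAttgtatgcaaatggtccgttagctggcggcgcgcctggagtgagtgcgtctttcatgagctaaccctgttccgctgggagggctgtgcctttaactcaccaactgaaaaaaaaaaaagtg
Fbln2: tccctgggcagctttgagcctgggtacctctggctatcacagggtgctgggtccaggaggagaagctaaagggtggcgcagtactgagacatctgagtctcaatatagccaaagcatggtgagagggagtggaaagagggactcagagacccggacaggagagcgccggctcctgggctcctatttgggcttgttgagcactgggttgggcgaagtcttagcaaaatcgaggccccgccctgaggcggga
Postn: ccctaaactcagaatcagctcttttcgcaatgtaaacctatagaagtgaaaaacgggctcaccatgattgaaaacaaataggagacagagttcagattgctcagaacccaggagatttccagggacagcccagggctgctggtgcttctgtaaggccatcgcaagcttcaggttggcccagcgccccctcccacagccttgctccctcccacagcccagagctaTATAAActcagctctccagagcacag
The Spp1 window held TATAAA with its first base 211 bases before the start and 2 matches to CAGAC, read as GTCTG on this strand, 33 and 5 bases before it. In Tnc the letters TATAAA stood 126 bases before the start, and in Postn 26 bases before it. The Fbln2 window held none of the 4 motifs, which says only that these letters are not in these 250 bases. Among 32841 windows of the same length in the table, 12.4% held TATAAA, 6.75% TGANTCA, 12.6% GGAATG and 42.2% CAGAC. The windows not shown differed. That of Spp1 held no TATAAA and 1 CAGAC match 41 bases before its start, that of Tnc held TATAAA 205 bases and a CAGAC match 70 bases before its start, and that of Postn held no TATAAA and 1 CAGAC match 191 bases before its start. The matches are descriptions of the sequence, and the libraries carry no measurement of factor binding.

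Thbs1 and Thbs2 encode thrombospondins, trimeric glycoproteins that bind CD36 and CD47, restrain the growth of new vessels and, in the case of thrombospondin-1, activate latent TGF-beta. Thbs1 lies at chr2:117941974-117957616 on the plus strand with 22 exons. It was at 50.6, 55.0, 101 and 155 CPM on day 0 and at 418, 600, 911 and 287 CPM on day 7. Levels were 320, 1251 and 513 CPM on day 14, and 699, 394, 561 and 612 CPM on day 21. All libraries of these 3 days lay above the highest day 0 library. On day 28, by contrast, 2 libraries, at 26.5 and 27.2 CPM, lay under every day 0 library, while replicate 1 was at 221 CPM, above them all.

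The log2 fold change of Thbs1 was 2.61 on day 7 (SE 0.54, adjusted p = 0.00098), 2.94 on day 14 (SE 0.56, adjusted p = 0.0018) and 2.65 on day 21 (SE 0.54, adjusted p = 0.0027). On day 14 it was 2.20 without replicate 2, the library with 1251 CPM, and remained called. On day 28 it was 0.03 (SE 0.57, adjusted p = 0.992), a value set by 1 library. Without replicate 1 of day 28 it became -1.75 (adjusted p = 0.0799, the lowest of a range up to 1 over the alternatives).

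Thbs2, at chr17:14885761-14914528 on the minus strand and also with 22 exons, was called on the same 3 days. Its day 0 libraries held 53.6, 84.9, 53.7 and 26.2 CPM and its day 7 libraries 87.3, 217, 189 and 98.5 CPM, so that the 2 days were separated by only a few CPM. Day 14 libraries were at 152, 401 and 206 CPM, day 21 libraries at 254, 468, 125 and 179 CPM, and day 28 libraries at 50.3, 76.1 and 168 CPM. Against day 0 the log2 fold change was 1.43 (SE 0.45, adjusted p = 0.024) on day 7, 2.20 (SE 0.47, adjusted p = 0.0046) on day 14, 2.22 (SE 0.45, adjusted p = 0.0026) on day 21 and 0.84 (SE 0.48, adjusted p = 0.427) on day 28. Several libraries decided the earliest call, which was lost without replicate 1, 3 or 4 of day 0 (adjusted p = 0.0517, 0.0541 and 0.103) and without replicate 2 or 3 of day 7 (adjusted p = 0.0944 and 0.0690), within a range of 0.00011 to 0.103 over the alternatives. The day 14 call was lost without replicate 2 of that day (adjusted p = 0.0719, the highest of a range from 3.3e-09).

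**Figure D2:**
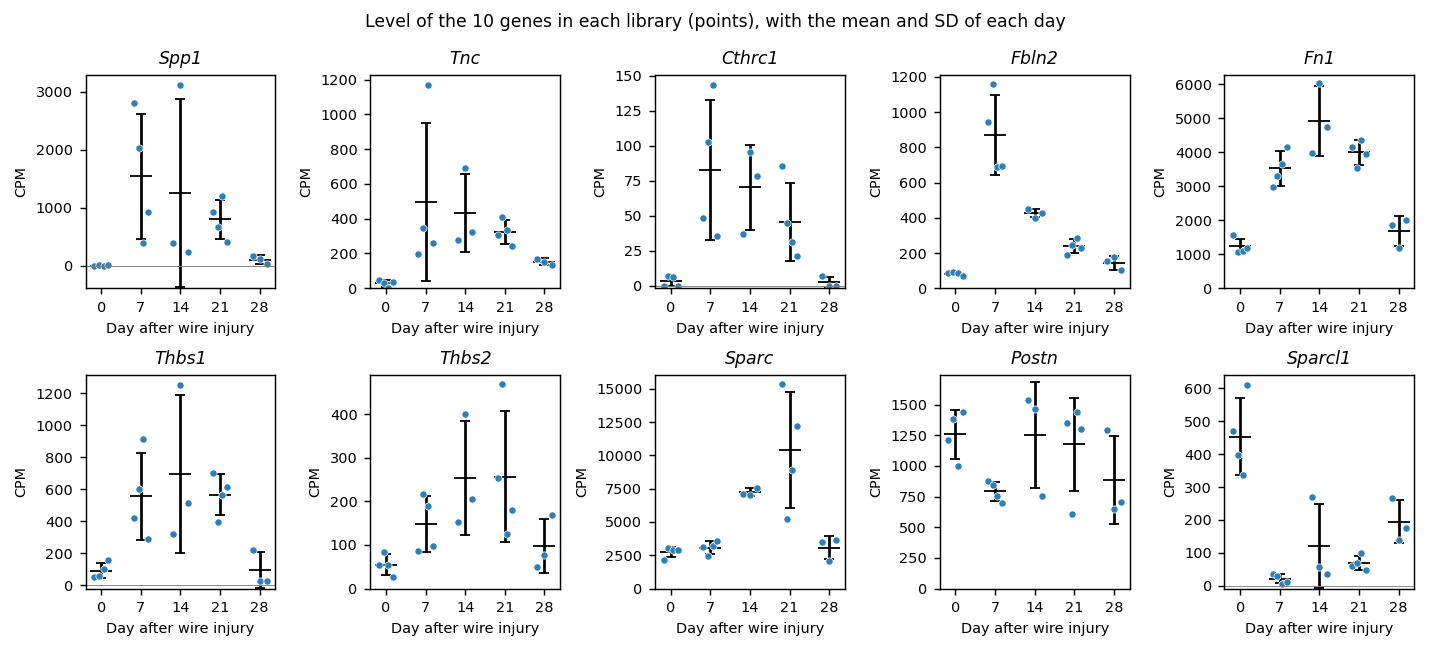
Level of each of the 10 genes in CPM on a linear axis against the day after wire injury, with 1 point per library, a horizontal line at the mean of the day and bars of 1 SD on each side. Spp1 ran from at most 1.31 CPM on day 0 to 3125 CPM in 1 library of day 14, and Sparcl1 was highest on day 0. For Postn the day 7 libraries lay under every day 0 library, and each later day overlapped day 0.

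Cthrc1 encodes collagen triple helix repeat containing 1, a secreted protein first found in balloon-injured arteries, where it is made by adventitial and neointimal cells and promotes migration. The gene lies at chr15:38940246-38950518 on the plus strand with 4 exons. On day 0 it gave 0, 7.17, 5.96 and 0 CPM, which stand for at most 6 counts in a library. Day 7 libraries held 48.1, 102, 144 and 35.5 CPM, day 14 libraries 36.8, 95.3 and 78.3 CPM, and day 21 libraries 85.2, 44.4, 31.2 and 20.9 CPM. On day 28 only replicate 1 held any count, 5 in all or 7.18 CPM, so the last day overlapped day 0. The log2 fold change was 4.53 (SE 0.78, adjusted p = 0.00015) on day 7, 4.31 (SE 0.80, adjusted p = 0.0014) on day 14 and 3.71 (SE 0.78, adjusted p = 0.0033) on day 21. Each of these 3 calls remained in all 27 alternatives, with the change reaching 5.22, 5.02 and 4.43 without replicate 2 of day 0. On day 28 the change was -0.38 (SE 1.12, adjusted p = 0.917), and a difference was not detectable at this depth.

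Fbln2 encodes fibulin-2, which bridges fibronectin, elastic fibres and the proteoglycan versican. Located at chr6:91189437-91249522 on the plus strand with 18 exons, it had the smallest p of the 10 genes on day 7. Its libraries were at 86.4, 94.4, 85.0 and 68.2 CPM on day 0 and at 946, 1159, 686 and 694 CPM on day 7. They then held 450, 401 and 429 CPM on day 14, 189, 246, 286 and 230 CPM on day 21, and 155, 179 and 102 CPM on day 28. From day 7 on the libraries of each day lay under those of the day before without overlap, and even the lowest day 28 library was above the highest of day 0. Fbln2 was higher by 3.38 on the log2 scale (SE 0.25) on day 7, 2.35 (SE 0.25, adjusted p = 2.1e-06) on day 14, 1.51 (SE 0.24, adjusted p = 0.00024) on day 21 and 0.80 (SE 0.26, adjusted p = 0.131) on day 28. The calls on days 7, 14 and 21 remained in all 27 alternatives, and day 28 was called in none of them, with an adjusted p from 0.0568 to 0.429.

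Fn1 encodes fibronectin, the dimeric glycoprotein that cells assemble into fibrils through integrin alpha-5 beta-1. It lies at chr1:71624673-71692419 on the minus strand with 46 exons, and 3′ counts do not separate its plasma and cellular splice forms. Day 0 libraries were at 1565, 1066, 1106 and 1181 CPM. On day 7 the libraries held 2993, 3301, 3644 and 4164 CPM, on day 14 3983, 6039 and 4740 CPM, and on day 21 4145, 3532, 4371 and 3946 CPM. None of these 11 libraries was under 2993 CPM, while no day 0 library was over 1565 CPM. On day 28 levels of 1861, 1197 and 2007 CPM overlapped day 0. The log2 fold change was 1.52 (SE 0.21, adjusted p = 7.7e-06) on day 7, 2.00 (SE 0.22, adjusted p = 2.1e-06) on day 14, 1.70 (SE 0.21, adjusted p = 8.9e-06) on day 21 and 0.46 (SE 0.22, adjusted p = 0.322) on day 28. No alternative changed these 4 calls.

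Sparc and Sparcl1 encode SPARC (osteonectin) and its relative SPARC-like 1 (hevin), which share a collagen-binding domain. SPARC is known to assist the maturation of collagen fibrils. Sparc lies at chr11:55285317-55314067 on the minus strand with 10 exons, and Sparcl1 at chr5:104226288-104262065, also on the minus strand, with 11. The Sparc libraries were at 2165, 3018, 2924 and 2917 CPM on day 0 and at 3138, 2410, 3190 and 3565 CPM on day 7, and these days overlapped. On day 14 they held 7085, 7061 and 7575 CPM, on day 21 15387, 5241, 8890 and 12202 CPM, and on day 28 3487, 2061 and 3656 CPM. Sparc was thus first called higher on day 14, with close agreement between libraries then and a wide spread on day 21, and each library of these 2 days was above every library of days 0, 7 and 28. Sparc changed by 0.16 on the log2 scale (SE 0.25) on day 7, 1.39 (SE 0.27, adjusted p = 0.0018) on day 14 and 1.92 (SE 0.26, adjusted p = 2.8e-05) on day 21, and on day 28 it was 0.15 (SE 0.27, adjusted p = 0.836). The day 14 and day 21 calls remained in all 27 alternatives.

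Sparcl1 went the other way. Its day 0 libraries held 470, 398, 335 and 610 CPM and its day 7 libraries 35.6, 30.5, 5.98 and 12.9 CPM. On day 14 they were at 269, 58.2 and 35.2 CPM, on day 21 at 61.5, 70.6, 98.7 and 46.5 CPM, and on day 28 at 267, 141 and 176 CPM. Every injured library was under every day 0 library, and replicate 1 of day 14 stood apart from the other libraries of its day. The log2 fold change was -4.40 (SE 0.53, adjusted p = 1.9e-06) on day 7, -1.91 (SE 0.50, adjusted p = 0.020) on day 14, -2.70 (SE 0.47, adjusted p = 0.00061) on day 21 and -1.22 (SE 0.48, adjusted p = 0.223) on day 28. Without replicate 1 of day 14 the change on that day was -3.31. The day 14 call was lost without replicate 4 of day 0 (adjusted p = 0.0523) and without replicate 2 or 3 of day 14 (adjusted p = 0.167 and 0.113), within a range of 1.6e-06 to 0.167. The day 28 decrease was called in 2 alternatives, with no filter on low counts (adjusted p = 0.0139) and with only the days compared in the fit (adjusted p = 0.0391), within a range of 0.0139 to 0.443.

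The contractile smooth muscle markers moved in the direction of Sparcl1. Their summed level, from 35160 to 40220 CPM on day 0, was 1729 to 7478 CPM on day 7, 8005 to 25120 on day 14, 9017 to 23090 on day 21 and 21580 to 30250 on day 28. All 10 of the markers tested fell on day 7, 5 fell on day 14, 7 on day 21 and 1 on day 28. In the day 14 library with 269 CPM of Sparcl1 the markers summed to 25117 CPM, against 8005 and 9012 CPM in the other two. The counts after day 7 moved with single libraries. On day 14 they were 3 without replicate 1, 2 or 4 of day 0, 1 and 2 without replicates 2 and 3 of day 14, and 9 without replicate 1 of day 14 or replicate 4 of day 7. On day 21 they were 4 without replicate 2 of day 0 or replicate 4 of day 21 and 3 without replicate 1 or 2 of day 21, and the day 28 call was lost without any 1 library of day 0 or replicate 2 or 3 of day 28 and became 2 without replicate 1 of day 28. The part of these markers in the Sparcl1 result was not tested.

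Within a library, the difference between log2 CPM of Sparc and of Sparcl1 depends on scaling only through the added prior count of 2. This count weighs most where Sparcl1 had few counts. With other prior counts or the deposited normalised signal, the day 7 shift against day 0 ran from 4.25 to 4.78. On day 0 this difference was 2.62 ± 0.46 (SD, n = 4), and day 7 brought it to 7.19 ± 1.12 (SD, n = 4). It stood at 6.39 ± 1.51 (SD, n = 3) on day 14. Day 21 had 7.11 ± 0.94 (SD, n = 4), and day 28 had 3.96 ± 0.35 (SD, n = 3). All 14 injured libraries had a larger difference than any day 0 library. The shift against day 0 was 4.57, 3.77, 4.49 and 1.35 on the 4 days. Each had p = 0.0286 in a two-sided exact permutation test, the smallest p that these group sizes allow. The 4 tests share the day 0 libraries. After adjustment over 8 tests this p was 0.0571, which missed the threshold. At the smallest p this pair could not pass unless a test of Thbs1 and Thbs2 reached it too, so the adjusted test cannot decide. For Thbs1 and Thbs2 the difference was 0.66 ± 1.33 (SD, n = 4) on day 0, and the shift was 1.20, 0.67, 0.62 and -1.27 on the 4 days, with adjusted p from 0.274 to 0.486 in the same exact test. On day 28 the 3 libraries differed in sign, at 2.07, -1.42 and -2.50, so the thrombospondins could not be shown to change unequally.

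**Figure D3:**
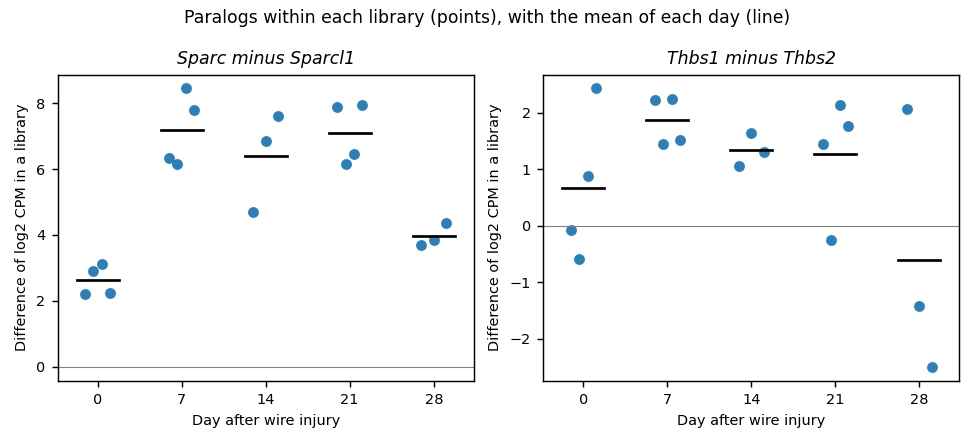
Difference of log2 CPM between the paralogs Sparc and Sparcl1 (left) and Thbs1 and Thbs2 (right) in each library (points) against the day after wire injury, with a line at the mean of each day. On the left the day 0 libraries lie between 2.20 and 3.11 and all injured libraries lie higher, from 3.69 to 8.45, while on the right the days overlap.

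Postn encodes periostin, a collagen-binding protein of heart valves and healing scars that is a usual marker of activated fibroblasts. It lies at chr3:54268501-54298471 on the plus strand with 21 exons. In the uninjured wall it was well above the floor of detection, at 1215, 1381, 997 and 1438 CPM. On day 7 its libraries held 876, 841, 752 and 701 CPM, on day 14 1540, 1461 and 752 CPM, on day 21 1352, 612, 1441 and 1303 CPM, and on day 28 1297, 652 and 705 CPM. The day 7 libraries lay under every day 0 library, and each later day overlapped day 0. Against day 0 Postn changed by -0.67 on the log2 scale (SE 0.27, adjusted p = 0.0889) on day 7, -0.01 (SE 0.29, adjusted p = 0.996) on day 14, -0.10 (SE 0.27, adjusted p = 0.893) on day 21 and -0.51 (SE 0.29, adjusted p = 0.436) on day 28. The lower level on day 7 was called with only the days compared in the fit (adjusted p = 0.0218) and without replicate 3 of day 14 (adjusted p = 0.0470), within a range of 0.0218 to 0.168. A test of any difference between the 5 days gave an adjusted p of 0.236 for Postn and at most 0.0035 for each of the other 9 genes, where 18% of all genes were called.

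The injured days were also compared with each other, in tests that share libraries. From day 7 to day 14, 3 of the 10 genes were called, against 1.66% of all genes (1.33% higher and 0.33% lower). Sparc rose by 1.24 on the log2 scale (SE 0.27, adjusted p = 0.016), Sparcl1 by 2.48 (SE 0.54, adjusted p = 0.016), and Fbln2 changed by -1.03 (SE 0.25, adjusted p = 0.030). Each of the 3 calls was lost when 1 of several libraries was left out, and those of Sparcl1 and Fbln2 also with only the days compared in the fit (adjusted p = 0.119 and 0.0827). Sparc was lost without replicate 2 of day 7 (adjusted p = 0.0768) and replicate 1 of day 14 (adjusted p = 0.0648), within a range from 2.4e-05. Sparcl1 was lost without replicate 3 of day 7 (adjusted p = 0.0589) and replicate 1 of day 14 (adjusted p = 0.638, with a change of 1.13), within a range from 2.4e-09. It was also lost in the limma alternative with the mouse number as a block (adjusted p = 0.207, with a change of 2.12). No library of day 7 or day 14 shares a mouse number with another library. Fbln2 was lost without replicate 1 or 2 of day 7 (adjusted p = 0.0942 and 0.142) and without replicate 1, 2 or 3 of day 14 (adjusted p = 0.164, 0.0939 and 0.112), within a range from 0.0018. Without replicate 1 of day 14 none of the 10 genes was called.

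From day 7 to day 21 the same 3 genes were called, against 7.26% of all genes (4.03% higher and 3.23% lower). Sparc was higher by 1.76 (SE 0.25, adjusted p = 0.00011) and Fbln2 changed by -1.87 (SE 0.23, adjusted p = 2.7e-05), and both calls remained in all 27 alternatives. Sparcl1 was higher by 1.70 (SE 0.52, adjusted p = 0.048), a call at the threshold that was lost in 13 alternatives. Its adjusted p reached 0.139 with the mouse number as a block and ranged from 9.6e-05 to 0.148 over the alternatives. The 12 libraries whose omission lost it were all 4 of day 0 and all 4 of day 21, replicates 2, 3 and 4 of day 7, and replicate 3 of day 28.

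Between day 14 and day 21 none of the 10 genes was called by edgeR, and neither was any of the 10312 genes tested (0% in both directions). Without adjustment, 421 genes (4.08%) passed 0.05 in edgeR's quasi-likelihood test, 1 of them among the 10. This was Fbln2, which changed by -0.84 on the log2 scale (SE 0.25, adjusted p = 0.826). DESeq2 called 3 genes in all and again none of the 10.

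By day 28, 7 genes differed from day 7, against 14.4% of all genes (6.4% higher and 8.05% lower). Sparcl1 was higher by 3.18 (SE 0.54, adjusted p = 0.00032), and 6 genes were lower. Among these, Cthrc1 changed by -4.91 (SE 0.93, adjusted p = 0.00084), Spp1 by -3.91 (SE 0.78, adjusted p = 0.0014) and Fbln2 by -2.58 (SE 0.27, adjusted p = 2.2e-06). Thbs1 changed by -2.58 (SE 0.60, adjusted p = 0.0050), Tnc by -1.70 (SE 0.54, adjusted p = 0.035) and Fn1 by -1.06 (SE 0.22, adjusted p = 0.0021). Replicate 1 of day 28 decided the size for Thbs1 and Cthrc1, which became -4.36 and -8.70 without it, the second of these a fitted value with no count left on day 28. The Tnc call was lost in 9 alternatives, with an adjusted p from 2.7e-06 to 0.274, among them the replicate number (adjusted p = 0.0586) and the mouse number (adjusted p = 0.0565) as a block. In 4 of these a library was left out, namely replicate 3 of day 7 (adjusted p = 0.274, with a change of -0.83) or replicate 1, 2 or 3 of day 28 (adjusted p = 0.0592, 0.0967 and 0.107).

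From day 21 to day 28, 4 genes were lower, against 0.679% of all genes (0.107% higher and 0.572% lower). Sparc changed by -1.76 (SE 0.28, adjusted p = 0.0023), a call that remained in all 27 alternatives. Fn1 changed by -1.24 (SE 0.22, adjusted p = 0.0075), lost only without replicate 2 of day 28 (adjusted p = 0.0882, the highest of a range from 2.2e-05). Thbs1 changed by -2.61 (SE 0.60, adjusted p = 0.044) and Cthrc1 by -4.09 (SE 0.93, adjusted p = 0.038). Each of these was lost in 8 alternatives, with an adjusted p of up to 0.161 and 0.148. Thbs1 was lost without replicate 2 of day 7, replicate 3 of day 14, replicate 1, 3 or 4 of day 21 and replicate 2 or 3 of day 28, and with the replicate number as a block (adjusted p = 0.0720). For Cthrc1 these were replicate 2 of day 7, replicate 3 of day 14, replicate 1 or 2 of day 21 and replicate 2 or 3 of day 28, with the mouse number as a block (adjusted p = 0.0894) and with only the days compared in the fit (adjusted p = 0.0710). Without replicate 1 of day 28 the 2 changes grew to -4.39 and -7.88. Spp1, at -2.96 (SE 0.75, adjusted p = 0.061), missed the threshold and passed it in 10 of 27 alternatives, the replicate block among them (adjusted p = 0.0155), within a range of 1.2e-18 to 0.185. The libraries whose omission let it pass were replicate 3 of day 7, replicates 1, 2 and 3 of day 14 and replicate 1 of day 28, with an adjusted p from 0.0116 to 0.0494.

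Together the 10 genes took 5958 ± 398 CPM (SD, n = 4) of a library on day 0. The sum was 11100 ± 331 CPM (SD, n = 4) on day 7, and 16660 ± 3403 CPM (SD, n = 3) a week later. Day 21 had 17900 ± 4860 CPM (SD, n = 4), and day 28 had 6426 ± 1617 CPM (SD, n = 3). The days of the highest mean differed between genes. Spp1, Tnc, Cthrc1 and Fbln2 had their highest mean on day 7, Thbs1 and Fn1 on day 14, and Sparc and Thbs2 on day 21. For Spp1, Tnc, Thbs1, Thbs2, Fn1 and Cthrc1 none of the 3 direct comparisons among days 7, 14 and 21 was called. The order among these days is thus not established for them. Fn1 on day 14 against day 7 had an unadjusted p of 0.035 in edgeR's quasi-likelihood test (adjusted p = 0.398). Sparc was called higher on days 14 and 21 than on day 7, but not between days 14 and 21 (0.53 on the log2 scale, adjusted p = 0.999), where replicate 2 of day 21, at 5241 CPM, lay under all day 14 libraries.

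Macrophage markers moved with the rise. The summed level of 16 markers was 165 to 610 CPM on day 0, where Mpeg1 held no count, 5979 to 8537 CPM on day 7, 1603 to 3702 on day 14, 2429 to 4083 on day 21 and 1027 to 1419 on day 28. All 16 rose on days 7, 14 and 21, and 4 on day 28, or 9 without replicate 1 of day 0. Thbs1, Fn1, Cthrc1 and Fbln2 were called higher on days 7, 14 and 21, when macrophage markers were higher too. So were Spp1 and Tnc, on all 4 days. Thbs2 was called on days 7, 14 and 21 as well, with a day 7 call that several single libraries decided. Sparc was called on days 14 and 21 but not on day 7, the day of the highest macrophage sum. The part of these markers in the results was not tested. Within day 7, the library with the least Spp1 (387 CPM) and the most Tnc (1170 CPM) had 6692 CPM of macrophage markers, within the range of the other 3.

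Other marker sets also moved with the rise of day 7. Of 10 proliferation markers 8 rose on that day, from a sum of 7.17 to 99.8 CPM on day 0 to 352 to 652 CPM. Of 9 neutrophil markers 5 were tested and 4 rose, from 26.8 to 109 CPM to 234 to 814 CPM, while Ly6g, Camp and Ngp held no count on day 7. Of 5 red blood cell markers 4 rose, from 40.2 to 369 CPM to 164 to 2347 CPM, and 2 without replicate 4 of day 0 or of day 7. Of 10 endothelial markers 5 rose and 1 fell, with sums of 680 to 1283 CPM on day 0 and 814 to 2582 CPM on day 7, which overlapped. The 7 T cell markers summed to 10.5 to 78.9 CPM on day 0 and 42.0 to 110 CPM on day 7. The part of these sets in the results was not tested.

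Cartilage genes were higher as well. Of 7 chondrocyte markers 4 were tested, of which 3, 3, 4 and 2 rose on days 7, 14, 21 and 28. The sum was 22.4 to 134 CPM on day 0, 126 to 284 on day 7, 165 to 995 on day 14, 411 to 1501 on day 21 and 308 to 538 on day 28. Replicate 1 of day 21 held the highest sum, 1501 CPM against 411 to 675 in the other libraries of that day, and this library also had the most Sparc. Cnmd held no count on any day and Col2a1 none on day 0. Without that library 2 rose on day 21, and without replicate 2 of day 14 1 rose on that day. The day 7 count was 1 without replicate 2 or 3 of day 0 or replicate 2 of day 7 and 0 without replicate 4 of day 0. The day 28 count was 0 without replicate 2, 3 or 4 of day 0 or replicate 2 of day 28, and 1 without replicate 2 of day 7, replicate 3 of day 14, replicate 3 or 4 of day 21 or replicate 1 or 3 of day 28. The part of these markers was not tested.

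Fibroblast markers moved in both directions. Of 10 markers 2 rose and 5 fell on day 7, the day of the lower Postn values, 2 rose and 2 fell on days 14 and 21, and 1 rose on day 28. Their sum was 3194 to 4363 CPM on day 0, 1393 to 2767 on day 7, 3845 to 5026 on day 14, 3401 to 6032 on day 21 and 2641 to 3255 on day 28. Gsn, for the actin-severing protein gelsolin, had the highest mean of the 10 on day 0, at 1465 ± 280 CPM (SD, n = 4), and was at 291 ± 73.7 CPM (SD, n = 4) on day 7. Lum, for the collagen-binding proteoglycan lumican, was higher on day 7 by 2.24 on the log2 scale (SE 0.44, adjusted p = 0.00056), and Ly6a by 1.94 (SE 0.31, adjusted p = 6.1e-05). The 4 calls of day 14 became 2 without replicate 2 of that day, and the day 28 call was lost without replicate 2 or 3 of day 0 or replicate 2 of day 28. The part of these markers was not tested either.

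**Figure D4:**
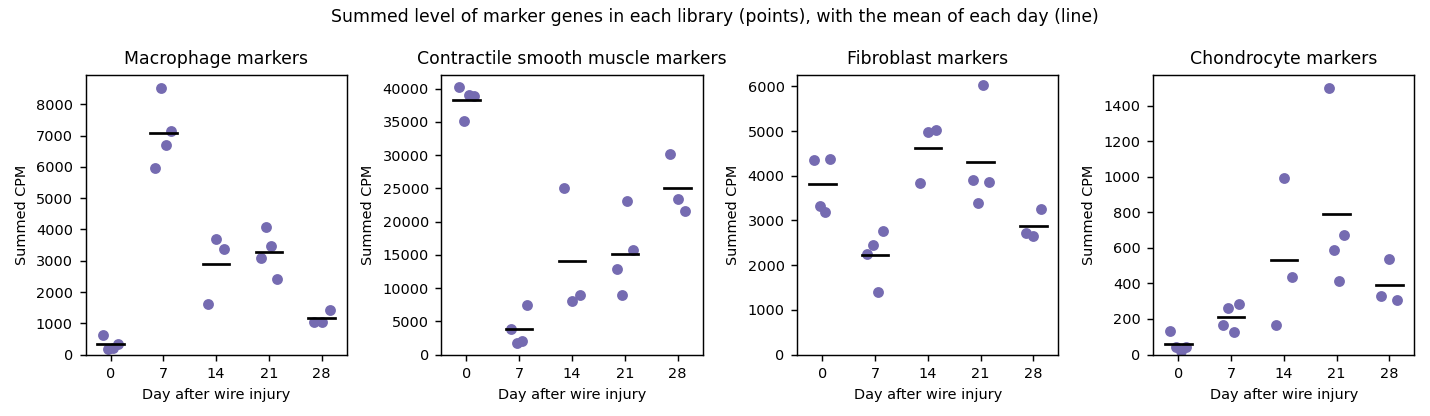
Summed CPM of macrophage, contractile smooth muscle, fibroblast and chondrocyte markers in each library (points) against the day after wire injury, with a line at the mean of each day. Macrophage markers run from 165 to 610 CPM on day 0 and from 5979 to 8537 CPM on day 7, and contractile markers from 35160 to 40220 CPM on day 0 and from 1729 to 7478 CPM on day 7.

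The genes outside the 10 with the most similar profile were found by Pearson's correlation of log2 CPM over the 18 libraries, a description in which the libraries share their days. Spp1 was most like Gm49339 (r = 0.972), a gene the annotation tags as a readthrough, Tnfrsf1a (0.947) and the kinase gene Lyn (0.939). For Fn1 these were Cd72 (0.961), Col5a1 (0.943) and Ccn4 (0.928), and for Fbln2 Tbxas1 (0.932), the Fc receptor gene Fcgr3 (0.930) and Cxcl12 (0.929). Tnc was most like Cybb (0.924), Coro1a (0.909) and the laminin gene Lamb1 (0.906), and Cthrc1 like Fscn1 (0.939), Myh9 (0.913) and Itgb2 (0.912). Sparc was most like the collagen gene Col1a2 (0.857), Igfbp2 (0.841) and the elastin gene Eln (0.830), and Sparcl1 like Ldhb (0.936), Pbxip1 (0.932) and Mylk (0.927), the kinase of smooth muscle myosin. For Thbs1 the nearest were Oasl2 (0.938), Myh9 (0.929) and Scarf1 (0.908), for Thbs2 Myo7a (0.885), Col12a1 (0.882) and Ccnl1 (0.869), and for Postn Cldnd1 (0.846), Cygb (0.839) and Gm9973 (0.824). Among the 10 themselves the closest pair was Thbs1 and Cthrc1 at 0.901 over all libraries and 0.580 once the mean of each day was removed. Spp1 and Fn1 were at 0.851 over all libraries but at -0.03 within days.

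Receptors of these proteins moved in both directions. Of 18 receptor genes, all tested, 4 rose and 4 fell on day 7, 2 rose and 2 fell on day 14, 2 rose and 1 fell on day 21, and 1 rose on day 28. Of all genes tested, 11.3%, 4.8%, 5.92% and 0.97% were called higher on days 7, 14, 21 and 28. Those called lower made up 8.53%, 1.42%, 2.93% and 0.369%. The same shares apply to the marker counts above and to the lists below. Cd44, which binds osteopontin and hyaluronan, was higher by 2.75 on the log2 scale on day 7 (SE 0.41, adjusted p = 2.5e-05), by 1.84 on day 14 (SE 0.42, adjusted p = 0.0079) and by 1.65 on day 21 (SE 0.40, adjusted p = 0.011). Sdc1, for the proteoglycan syndecan-1, rose on all 4 days, by 2.32, 2.86, 2.60 and 1.58 (adjusted p = 7.1e-05, 4.0e-05, 7.8e-05 and 0.044). Itga8, the integrin subunit of contractile cells that binds fibronectin, osteopontin and tenascin-C, changed by -3.62 on day 7 (SE 0.62, adjusted p = 0.00014), and Itga9 by -2.74 (SE 0.48, adjusted p = 0.00020). Itga3 changed by -1.50 on day 14 (SE 0.39, adjusted p = 0.019) and by -1.12 on day 21 (SE 0.35, adjusted p = 0.044), and Itgb3 by -1.53 on day 14 (SE 0.41, adjusted p = 0.024). The 4 calls of day 14 fell to 1 without replicate 2 and to 2 without replicate 3 of that day. The single call of day 28 was lost without replicate 2, 3 or 4 of day 0, replicate 1 of day 7, replicate 3 of day 14, replicate 1, 3 or 4 of day 21 or replicate 3 of day 28, became 2 without replicate 2 of day 21 and 4 without replicate 1 of day 28.

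Most partners in matrix assembly rose on days 7, 14 and 21. Of 12 genes for fibrillar collagens, crosslinking enzymes and associated proteins, 9, 9, 10 and 0 rose on days 7, 14, 21 and 28. Tgm2, for the crosslinking enzyme transglutaminase 2, changed by -1.28, -1.37 and -1.23 on days 7, 14 and 21 (adjusted p = 0.00045, 0.0023 and 0.0023). The median log2 fold change of the 12 was 0.85, 1.52, 1.28 and 0.25 on the 4 days, against 0.07, 0.05, 0.07 and -0.01 over all genes tested. Col1a1 was higher by 1.45 on day 7 (SE 0.26, adjusted p = 0.00027), by 2.19 on day 14 (SE 0.28, adjusted p = 2.0e-05) and by 2.84 on day 21 (SE 0.28, adjusted p = 4.1e-07). Col5a1, for a collagen that starts fibrils, rose by 1.11 on day 7 (SE 0.22, adjusted p = 0.00078), Col3a1 by 1.64 on day 14 (SE 0.21, adjusted p = 2.0e-05) and Col1a2 by 2.35 on day 21 (SE 0.23, adjusted p = 4.8e-07). The 10 calls of day 7 fell to 6 without replicate 2 of day 0. On day 28 the count, 0 in edgeR with 4 genes at an unadjusted p under 0.05, was 3 in DESeq2, 1 without replicate 3 of day 7 and 2 without replicate 1 of day 28.

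Further matricellular relatives moved in both directions. Of 32 listed genes 22 were tested, of which 4 rose and 7 fell on day 7, 3 rose on day 14, 5 rose and 2 fell on day 21, and 1 rose on day 28. Ccn4, a WNT-induced protein of the CCN family, was at 1.94 ± 3.13 CPM (SD, n = 4) on day 0 and at 64.9 ± 29.5 (SD, n = 4) on day 7, higher by 4.87 (SE 0.63, adjusted p = 4.6e-06), and by 5.12 on day 14 and 5.26 on day 21. Ccn3 of the same family changed by -3.92 on day 7 (SE 0.58, adjusted p = 2.4e-05), from 1511 ± 278 (SD, n = 4) to 99.1 ± 93.2 CPM (SD, n = 4). Comp, a thrombospondin of cartilage that also stands in the chondrocyte list, was higher by 2.62, 2.85 and 2.81 on days 14, 21 and 28 (adjusted p = 0.0082, 0.0028 and 0.021). Fbln1, a relative of Fbln2, changed by -2.02 on day 7 (SE 0.46, adjusted p = 0.0022) and by -1.71 on day 21 (SE 0.45, adjusted p = 0.017), opposite in sign to Fbln2. Tgfbi rose by 1.86 on day 7 (SE 0.33, adjusted p = 0.00018), and Smoc2 of the SPARC family changed by -1.29 on day 21 (SE 0.41, adjusted p = 0.046).

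These counts of relatives were unsteady after day 7. The 3 calls of day 14 became 1 without replicate 2 of that day and 5 without replicate 3 of day 7. The 7 of day 21 became 3 without replicate 1 or 2 and 4 without replicate 4 of that day or without replicate 3 or 4 of day 0. The day 28 call was lost without replicate 2 or 3 of day 0 or replicate 2 of day 28 and became 3 without replicate 1 of day 28.

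Of 14 genes for TGF-beta ligands, receptors and early targets, 0 rose and 5 fell on day 7, with Pmepa1 changed by -1.56 (SE 0.23, adjusted p = 2.6e-05) and Ltbp1, which anchors latent TGF-beta in the matrix, by -1.57 (SE 0.28, adjusted p = 0.00025). On days 14, 21 and 28 edgeR called 0 of the 14, with 2, 1 and 2 genes at an unadjusted p under 0.05, and DESeq2 called 1, 0 and 1. The call counts of these 3 days became 1 on day 14 without replicate 1 of day 28, 1 on day 21 without replicate 1 of day 0, and 3 on day 28 without replicate 1 of day 28.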

How the data were processed

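The 3′ ends of transcripts in 18 libraries of laser-dissected carotid tissue were analysed. Reads were trimmed, freed of PCR duplicates through molecular identifiers and assigned to mm39 transcripts by the authors with Salmon 1.9.0. The deposited estimated counts, whole numbers for each gene, were used for the tests. The deposited normalised signal, made by the authors with DESeq2 1.36.0, entered 1 alternative. The annotation release and the use of strand in the counting are not given in the sources used here. The 3′ counts were not scaled by length, and the tests of single genes compared levels within a gene. Sums over genes, the differences within paralog pairs and the rank of Gsn set levels of different genes side by side.

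The test was edgeR 4.0.16 in R 4.3.3 (filterByExpr by day, TMM normalization, quasi-likelihood test, 1 fit for all days). P-values were adjusted after Benjamini-Hochberg for 10312 genes, with calls at an adjusted p under 0.05. Each SE of a log2 fold change was derived from this test, as the absolute change divided by the square root of its F statistic. CPM use the TMM-scaled library sizes over the genes tested. Paralog pairs were compared by exact permutation tests on log2 CPM (prior count 2), adjusted over 8 tests. For Spp1, whose day 0 libraries held no more than 3 counts, fold changes are given as bounds against 3 counts in the library where these weigh most.

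Alternatives were DESeq2 1.42.0, RLE normalization, library totals only, no filter, a filter of 10 counts in 3 libraries, only the days compared, the replicate number or the mouse number as a block (the latter with limma 3.58.1), the deposited normalised signal (limma), other prior counts for the pairs, and each library left out in turn. Where a day was left with few libraries, the spread was shared with the other days. Libraries with the same replicate number had residuals with a median correlation of -0.01 over 33 pairs (-0.13 to 0.20). Those with the same mouse number had -0.01 to 0.06 over 3 pairs. Values this low in both cases cannot show whether libraries are paired. The steps were tested on simulated data for day 7 against day 0, with 200 of 10312 genes changed. There 132 were called, 62% of the changed genes were recovered (53% of those changed 4-fold and 71% of those changed 8-fold), and 6.06% of calls were false.

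The 10 genes, the gene lists and the tests were chosen with earlier results of these data known. Genes named from the lists of relatives, receptors, matrix partners and TGF-beta genes follow a rule. These are up to 2 genes in each direction and day with the smallest p among those called against day 0. For each of the 10, the 3 other genes with the highest correlation are named as well. Genes named from the marker lists fall outside this rule. Gene positions are from GENCODE vM39 on GRCm39, and sequences before the start are from RefSeq on GRCm38.p6. On the opposite strand Sparcl1, Tnc, Thbs1, Postn and Fn1 share exon sequence with annotated genes, so reads of such partners could be counted with them. Protein sequences were not used here, and a planned search of them for RGD was not run.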

Additional observations from a re-analysis of the deposited data

Results flagged for a closer look

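The levels of 3 genes in single libraries stood apart from the rest of their day by the gap to the nearest library relative to the range, among 30 sets of 4 libraries examined (10 genes on days 0, 7 and 21). Chance would mark about 1 in 20 such sets. Sparc was at 2165 CPM in replicate 1 of day 0, where the other libraries held 2917 to 3018 CPM. Tnc was at 1170 CPM in replicate 3 of day 7, where the others held 199 to 347 CPM. Postn was at 611.5 CPM in replicate 2 of day 21, where the others held 1303 to 1441 CPM. That library also had the lowest Sparc level of its day, at 5241 CPM. The causes were not tested.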

How the results depend on the processing

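The numbers of the 10 genes called stayed within 1.5 times of the reported ones in the alternatives that kept all libraries, with these exceptions. With only the days compared, 1 gene was called on day 14 against day 7. On day 28 against day 0, 1 was called with the replicate block and 0 with the mouse block, which also used limma in place of edgeR. On day 28 against day 21, 8 were called with no filter on low counts. Leaving out 1 library at a time gave 7 to 9 genes on day 7, 7 to 9 on day 14, 9 to 9 on day 21 and 1 to 2 on day 28 against day 0. It gave 0 to 3 on day 14, 2 to 3 on day 21 and 6 to 7 on day 28 against day 7, 0 to 0 on day 21 against day 14 and 1 to 5 on day 28 against day 21. The shift of Sparc minus Sparcl1 ran from 4.15 to 4.91, 3.16 to 4.62, 4.21 to 4.81 and 1.15 to 1.51 on days 7, 14, 21 and 28, and that of Thbs1 minus Thbs2 from 0.78 to 1.79, 0.26 to 1.26, 0.20 to 1.21 and -2.62 to -0.33. Changes that were not called crossed 0 in some settings. Postn on day 14 was at 0.00074 with library totals only and 0.010 with no filter, and between -0.21 and 0.23 without single libraries (0.0059 and 0.033 without replicates 2 and 4 of day 0, 0.23 without replicate 3 of day 14), and Postn on day 21 was between -0.23 and 0.12, the latter without replicate 2 of that day. On day 28 Thbs1 was at -0.49 with the mouse block, -0.54 with the normalised signal, -0.0012 in DESeq2, and -0.16, -0.17 and -1.75 without replicates 1 and 2 of day 0 and replicate 1 of day 28, within a range up to 0.46. On the same day Cthrc1 was at 0.36, 0.12 and 0.16 without replicate 2 of day 0 and replicates 2 and 3 of day 28, and at -4.17 without replicate 1 of day 28. Other numbers also moved by over 1.5 times in alternatives that kept all libraries, most often with no filter, and are given with their range. Of all genes, 171 on day 14 against day 7 became 74 to 392, 138 on day 28 against day 0 became 52 to 366, 70 on day 28 against day 21 became 60 to 373, 1490 on day 28 against day 7 became 977 to 1881, and 0 on day 21 against day 14 became up to 23. Against day 0, matricellular relatives gave 2 to 8 instead of 3, 5 to 12 instead of 7 and 0 to 4 instead of 1 on days 14, 21 and 28, and receptors up to 7 instead of 4, up to 7 instead of 3 and 0 to 3 instead of 1. Matrix partners gave up to 3 instead of 0 on day 28, and TGF-beta genes up to 1 instead of 0 on days 14 and 28. Contractile markers gave up to 10 instead of 5 on day 14 and 0 to 5 instead of 1 on day 28, macrophage markers 3 to 11 instead of 4 on day 28, chondrocyte markers 1 instead of 3 on day 7 and 1 to 3 instead of 2 on day 28, red blood cell markers 2 instead of 4 on day 7, and fibroblast markers up to 2 instead of 1 on day 28. Without single libraries the numbers of all genes were 233 and 419 on day 14 (without its replicates 2 and 3) and 62 to 483 on day 28 (the latter without its replicate 1) against day 0, 27 to 320 on day 14, 490 to 825 on day 21 and 1022 to 1734 on day 28 against day 7, and 15 to 409 on day 28 against day 21. Spp1 on day 21 against day 7, not called otherwise, had an adjusted p of 0.0051 with no filter, within a range up to 0.805. The causes were not tested. Among the 10 genes, the replicate block ended the calls of Tnc on day 28 against days 0 and 7 and of Thbs1 on day 28 against day 21, and Spp1 passed in that last comparison. Few counts limit Spp1 on day 0, Cthrc1 on days 0 and 28 and Sparcl1 on day 7, where 1 library held 3 counts. Each day had only 3 or 4 libraries. In the simulated data, 53% of the genes changed 4-fold and 71% of those changed 8-fold were recovered. Those genes were drawn from all genes tested, whatever their level, so these shares need not hold for the 10 genes.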
